A study of Mus musculus with 24 samples.

Results

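The nuclear-encoded respiratory chain genes described here were the 72 of 54658 genes in the table whose symbols name a subunit of NADH dehydrogenase (complex I, Nduf with a letter a, b, c, s or v), of the cytochrome bc1 complex (complex III, Uqcr), of cytochrome c oxidase (complex IV, Cox4 to Cox8) or of the ATP synthase (complex V, Atp5). The symbols of 92 genes matched. Left out were 8 whose symbols carry a pseudogene mark (-ps) and 12 with a mean normalised count under 10 over the 24 libraries. Among the 8, Ndufb1-ps averaged 163. Of the 72 genes, 36 belonged to complex I, 8 to complex III, 12 to complex IV and 16 to complex V. All 72 passed the minimum mean of 10 in each comparison. Their means ran from 53.9 for Cox6b2 to 3166 for Atp5k, Cox6b2 stood well below the next gene, Ndufa1, at 159, and the highest matched gene under the minimum, Atp5s, had 9.12.

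The respiratory chain sits in the inner mitochondrial membrane. Complex I takes electrons from NADH, complex III passes them to cytochrome c, complex IV hands them to oxygen, and complex V uses the proton gradient that results to make ATP. Most subunits are made from nuclear genes and imported, while a small catalytic core is encoded by mitochondrial DNA, and early neural progenitors are known for a glycolytic metabolism that gives way to oxidative phosphorylation as neurons differentiate.

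The 24 libraries came from mouse embryos that lack the centriolar protein CEP135, Cep135 (-/-), and from Cep135 (+/+) controls, with 3 libraries of each genotype in each of 4 conditions. These were developing cortices at embryonic stage E11.5, cortices at E14.5, and neurospheres grown from dissociated E14.5 cortices for 12 h or 24 h. The mutants are homozygous for a germline allele, so every cell of the embryo lacks the protein, and the cultures are short-term ones of mixed cortical cells. The E14.5 cortices and the cultures carry the same specimen numbers in their titles (controls 3, 4 and 5 and mutants 1, 2 and 6), but the labels do not say that a number marks 1 embryo, so libraries were not paired by it. The labels of the mutant 6 cortex conflict, since its title and source give E14.5 and its description E11.5 as the age. It was taken as E14.5, and its summed postmitotic neuron markers (28572 normalised counts) lay within the range of the E14.5 cortices and above that of the E11.5 cortices. The titles of the E11.5 cortices carry more than 1 prefix, each in both genotypes. The descriptions of E11.5 mutants 2 and 3 give another prefix than their titles. What it marks is not stated, and in these libraries it cannot be told apart from genotype. The assay sequenced 1 tag near the 3′ end of each transcript, so a level does not scale with transcript length and levels of different genes can be set side by side. A normalised count is the number of reads of a gene divided by the size factor of its library.

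Libraries held 4732781 to 11645213 reads on genes. The RNA of the repeat-rich locus Gm42418 took 6.11 to 34.8% of them, and because that share was uneven (20.5 to 23.0% in the Cep135 (-/-) cultures at 24 h against 6.26 to 13.9% in their controls), summed levels are given below as a share of reads without it. Gm42418 took 10.7 to 34.8% in the 12 h cultures and 9.78 to 15.0% in the E14.5 cortices. A fit with this share as a term was run between genotypes and not for age, culture or time. Cep135 itself averaged 329 ± 42.2 (SD, n = 3) normalised counts in Cep135 (+/+) and 303 ± 50.1 in Cep135 (-/-) cortices at E11.5, and its groups did not differ beyond their spread in any condition (log2 difference of mutant minus control -0.12, 0.14, -0.15 and 0.15 in the order E11.5, E14.5, 12 h and 24 h). Since the mutation lies near the start of the gene and the tag near its end, that level checks nothing about the genotype. Markers of the dorsal telencephalon (Emx1, Emx2, Pax6 and Lhx2) summed to 1496 to 4170 normalised counts in all libraries.

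Together the 72 genes made up 1.27 to 1.42% of reads without Gm42418 in the E11.5 cortices, 1.21 to 1.34% in the E14.5 cortices, 0.872 to 1.05% in the 12 h cultures and 0.974 to 1.07% in the 24 h cultures (n = 6 each). The E14.5 cortices and the 12 h cultures did not overlap in this sum, nor did they overlap for any of the 4 complexes taken alone. Complex I took 0.399 to 0.427% at E14.5 and 0.288 to 0.334% at 12 h. For complex III the ranges were 0.123 to 0.148% and 0.0926 to 0.109%. Complex IV had 0.288 to 0.348% and 0.199 to 0.251%, and complex V had 0.391 to 0.427% and 0.292 to 0.354%. Since a bulk library mixes cells, fewer cells with high respiratory transcripts and less of these transcripts per cell cannot be told apart.

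**Figure D1:**
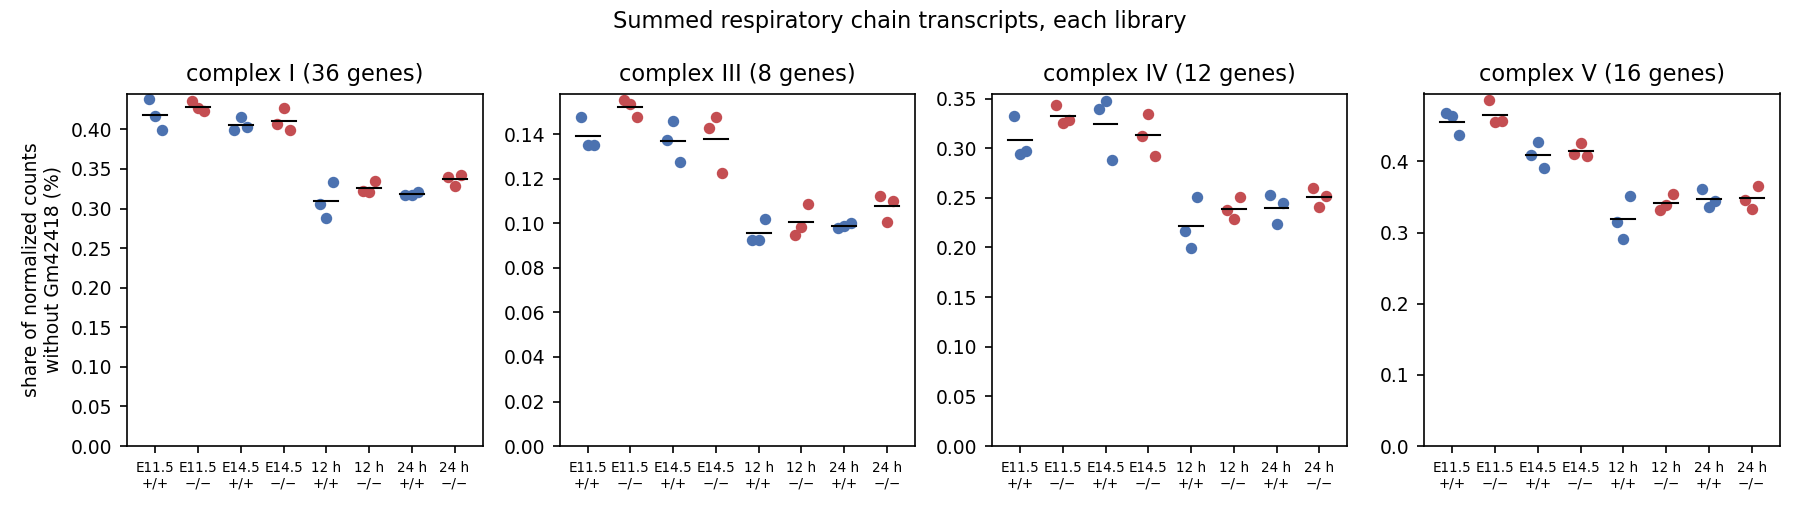
Summed level of the subunits of each complex in the 24 libraries, as a percentage of reads on genes without Gm42418 (vertical axis) by condition (horizontal axis); blue points are Cep135 (+/+) libraries, red points Cep135 (-/-) libraries and black lines the means of 3. In each complex, all 6 libraries of the 12 h cultures lie below all 6 of the E14.5 cortices.

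Within each complex, levels spread widely. In complex I, the accessory subunits Ndufa2 and Ndufa10 had the highest means over the 24 libraries (1934 and 1436 normalised counts) and Ndufa1 the lowest (159). In complex III the hinge protein gene Uqcrh led with 2690, followed by Uqcrq with 1114, and the Rieske iron-sulphur subunit Uqcrfs1 was lowest with 235. In complex IV, Cox6c (2732) and Cox7a2 (2491) led, and Cox6b2, an isoform best known from testis, was lowest. In complex V, Atp5k (3166) and the alpha subunit Atp5a1 (2765) led and Atp5g2 (266), which codes for the membrane c subunit along with Atp5g1 and Atp5g3, was lowest. Among the subunit c genes, the medians in E14.5 cortex were 1823 for Atp5g3, 1377 for Atp5g1 and 307 for Atp5g2, and the ranges of Atp5g1 and Atp5g3 overlapped. Reads that also match processed pseudogenes of these small genes can be split or dropped by the counting, so levels of the shortest ones are uncertain.

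The promoters of some of these genes are shown as the 120 bases before the transcription start, from RefSeq on GRCm38.p6, 5′ to 3′ on the gene's strand. Uqcrh (chr4:116075071-116075190, minus strand), Atp5g2 (chr15:102671048-102671167, minus), Ndufa8 (chr2:36049339-36049458, minus) and Atp5k (chr5:108434400-108434519, minus) are shown because their transcripts were lower in culture and their promoters hold a motif of a factor known to bind respiratory gene promoters, and Atp5j (chr16:84834977-84835096, minus, the second of its 2 listed starts) because it was lower at E14.5 and holds motifs of 2 such factors. Capitals mark the matches. They are GCGCATGC, the letters bound by NRF1 (overlapping matches on both strands merged), CCGGAAG, the core of the ETS family to which GABPA belongs, and AAGATGGCG for YY1, each searched on both strands.
Uqcrh: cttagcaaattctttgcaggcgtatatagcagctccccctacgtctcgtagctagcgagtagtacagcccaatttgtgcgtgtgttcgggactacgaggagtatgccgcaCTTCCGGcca
Atp5g2: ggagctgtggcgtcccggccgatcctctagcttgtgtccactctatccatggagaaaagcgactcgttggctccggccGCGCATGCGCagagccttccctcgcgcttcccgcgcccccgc
Ndufa8: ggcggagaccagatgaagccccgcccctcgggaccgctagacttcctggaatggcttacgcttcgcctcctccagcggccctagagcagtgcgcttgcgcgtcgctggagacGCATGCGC
Atp5k: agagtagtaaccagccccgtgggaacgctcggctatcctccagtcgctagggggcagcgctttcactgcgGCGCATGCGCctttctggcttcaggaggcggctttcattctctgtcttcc
Atp5j: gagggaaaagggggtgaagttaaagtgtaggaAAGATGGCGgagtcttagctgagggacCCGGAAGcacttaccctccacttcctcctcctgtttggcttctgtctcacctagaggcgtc

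Promoters of 60 of the 72 genes were listed, as windows of 250 bases before to 50 after the start. The NRF1 letters stood in 9 of the 60 (15.0%) against 3.05% of 27025 genes. The ETS letters stood in 14 (23.3%) against 9.93%, and the YY1 letters in 7 (11.7%) against 1.64%. Any of the 3 stood in 25 (41.7%) against 13.6%. Cox7a2l and Ndufa3, which with Uqcrh had the smallest p in culture, held none of the 3 and are not printed. Of the 28 listed genes that were lower in 12 h cultures, 7 held the NRF1 letters, 9 the ETS letters and 5 the YY1 letters, and of the 32 others 2, 5 and 2 did. These are counts of letters in a window, and binding was not measured.

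The study's first question was what changes without CEP135. None of the 72 genes passed the test between genotypes (limma on log2 of the normalised count plus 1, adjusted p under 0.05 over all genes tested, 3 against 3 libraries) in any of the 4 conditions. The share of all genes that passed was 0.0149% at E11.5, 0.0736% at E14.5, 0% in 12 h cultures and 0.271% in 24 h cultures. Without adjustment, 5, 6, 0 and 3 of the 72 genes had p under 0.05 in the same order, against 7.39%, 9.10%, 4.85% and 10.6% of all genes. The median log2 difference of the 72 genes was 0.09, -0.03, 0.07 and 0.02, beside 0.02, 0.01, -0.02 and -0.01 over all genes tested. At E11.5 the median was 0.03 in complex I, 0.14 in complex III, 0.15 in complex IV and 0.06 in complex V.

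Mutant and control libraries did not overlap for 13 of the 72 genes at E11.5 (18.1%, against 13.3% of all genes), of which 12 were above and 1 below the controls. At E14.5 they did not overlap for 8 (4 above, 4 below, against 13.7% of all genes), at 12 h for 3 (3 above, against 11.0%) and at 24 h for 5 (3 above, 2 below, against 16.2%). The 95% intervals show how far these data bound a genotype difference. They lay within 1.5-fold in either direction for 60, 50, 40 and 58 of the 72 genes and within 2-fold for 71, 67, 65 and 70, with a median half-width of 0.28, 0.32, 0.42 and 0.33 on the log2 scale. At E14.5 and in the cultures the gene with the most positive difference was Xist, the X-inactivation transcript (log2 difference 6.07, 6.52 and 6.01 at E14.5, 12 h and 24 h). The fits held no term for embryo sex. Its part in the genotype differences of these 3 conditions was not tested, and these fits cannot tell it apart from genotype. That holds for autosomal genes such as Cox6b2 as for the X-linked Ndufa1, Ndufb11 and Cox7b.

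**Figure D2:**
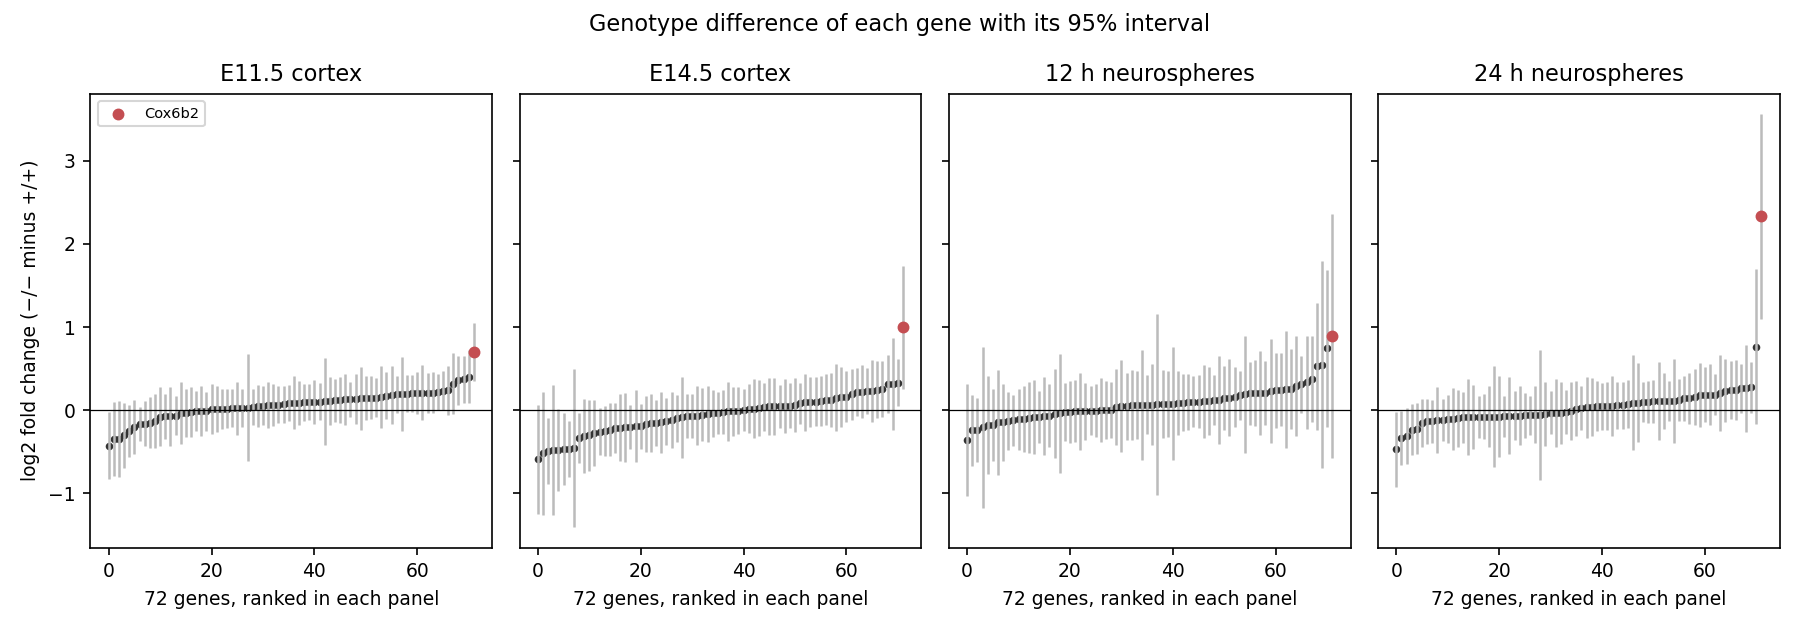
Log2 difference between Cep135 (-/-) and Cep135 (+/+) libraries (vertical axis, points) with its 95% interval (grey bars) for each of the 72 genes, ranked from left to right within each of the 4 conditions, 3 libraries a group, with Cox6b2 in red. Most intervals include 0, and none of the genes passed the adjusted test in any condition.

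Cox6b2, the complex IV isoform, had the largest positive log2 difference of the 72 genes in each of the 4 conditions. At E11.5 its normalised count was 84.6, 89.5 and 74.6 in Cep135 (+/+) and 150, 124 and 132 in Cep135 (-/-). At E14.5 it was 36.5, 29.8 and 34.9 against 92.6, 91.6 and 36.8. At both ages the mutant values were all above the controls, but at E14.5 mutant 6, the library with the conflicting age labels, lay beside the controls. In 12 h cultures it was 14.2, 44.6 and 9.87 against 19.5, 54.7 and 41.2, where the groups overlapped, and in 24 h cultures 10.9, 3.37 and 6.25 against 26.5, 57.7 and 28.8, where they did not. The log2 differences were 0.70 ± 0.159 (SE) at E11.5, 0.89 ± 0.679 at 12 h and 2.33 ± 0.575 at 24 h, and the 95% interval at E14.5 was 0.26 to 1.73. The limma adjusted p of the 4 conditions was 0.380, 0.472, 0.913 and 0.111 in the same order. At 24 h, DESeq2 on the whole reads gave an adjusted p = 0.0212 and a limma fit of all 24 libraries 0.0324, and edgeR gave 0.106. Cox6b2 lies on chromosome 7 (chr7:4751792-4753094, minus strand, GRCm38), and its counts of a few reads in the 24 h controls make the fold uncertain. The other isoform, Cox6b1, averaged 1255 ± 138 against 1130 ± 137 in these cultures, and so held most of the transcripts of both.

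Sums of cell type markers also separated by genotype. At E11.5 ventral telencephalon markers summed to 1135 to 1364 normalised counts in controls and 801 to 935 in mutants, and endothelial markers to 945 to 1041 and 1086 to 1218. At E14.5 postmitotic neuron markers summed to 35062 to 37941 and 26607 to 28572, and microglia markers to 233 to 292 and 442 to 553. Choroid plexus markers summed to 982 to 3706 in control and 4579 to 15870 in mutant cultures at 12 h, and to 774 to 3549 and 4911 to 16599 at 24 h. At 24 h, apical progenitor markers (8993 to 10125 and 11479 to 12781), intermediate progenitor markers (762 to 893 and 1049 to 1153) and meningeal markers (146 to 182 and 224 to 290) were separate as well. The part of these cell types in the genotype differences of Cox6b2 and the other genes was not tested.

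The second comparison was the change with age in the cortex. Of the 72 genes, 4 were higher at E14.5 than at E11.5 (5.56%, against 24.1% of all genes) and 14 were lower (19.4%, against 29.5%), at an adjusted p under 0.05 in a limma fit of the 12 cortices averaged over genotypes. Both shares were below those of all genes. The median log2 difference was -0.10, beside -0.08 over all genes tested, and 50 of the 72 were negative. By complex, 2 rose and 4 fell in complex I, none rose and 2 fell in complex III, 1 rose and 2 fell in complex IV, and 1 rose and 6 fell in complex V, with medians of -0.06, -0.14, -0.06 and -0.18. With 1 library left out, at least 3 of the 6 calls in complex I, 1 of the 2 in complex III, all 3 in complex IV and 5 of the 7 in complex V stood, the lowest in complex I without E11.5 control 3. Of the 18 calls, 11 stood in all 9 other settings and with any 1 of the 12 libraries left out. The libraries of the E11.5 and E14.5 cortices carry different prefixes in their titles, and age and whatever these mark cannot be told apart.

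**Figure D3:**
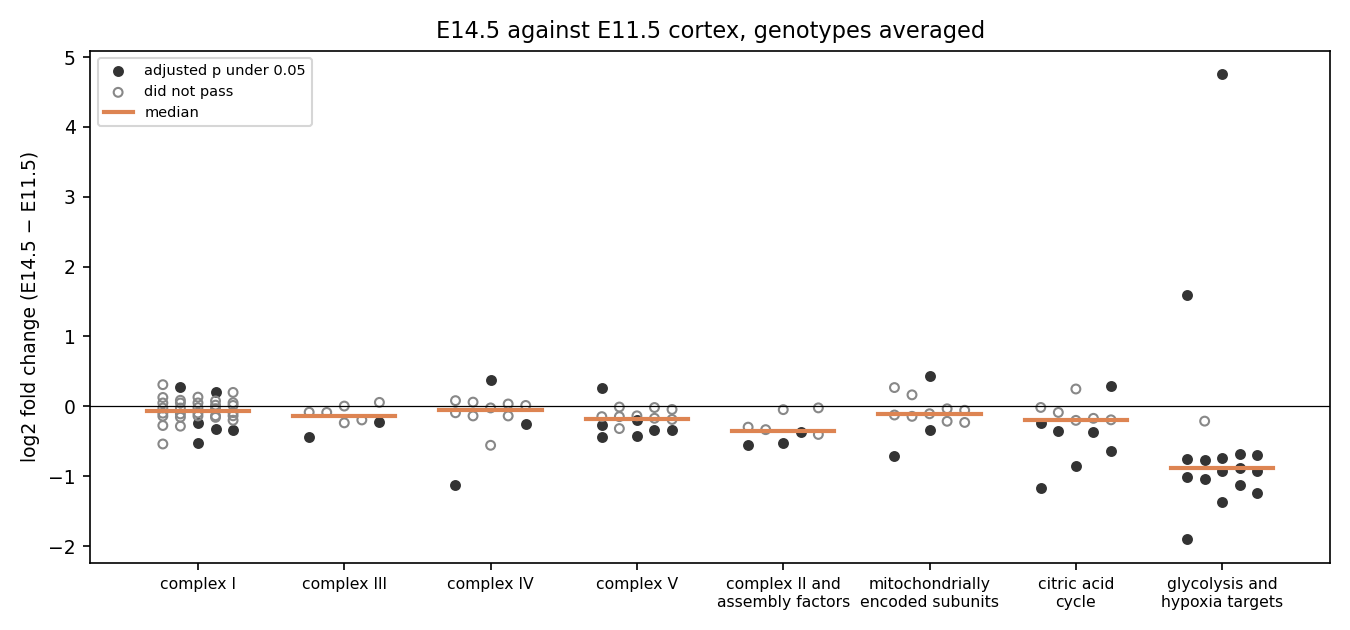
Log2 difference of E14.5 minus E11.5 cortex (vertical axis) for each of the 72 genes, grouped by complex (horizontal axis). Beside them stand complex II with its assembly factors, mitochondrially encoded subunits, the citric acid cycle, and glycolysis and hypoxia targets. Filled points passed an adjusted p under 0.05 and orange lines are medians. Complex V has its median at -0.18 and 6 of its 16 genes lower.

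Cox7a2l, which codes for a factor that joins complexes III and IV into supercomplexes, was the clearest gene to rise with age. Its normalised count at E11.5 was 1465, 1407 and 1464 in controls and 1615, 1604 and 1522 in mutants, and at E14.5 it was 1787, 2084 and 2322 in controls and 1918, 1903 and 1787 in mutants. All E14.5 libraries lay above all E11.5 libraries, and the log2 difference was 0.37 ± 0.0753 (limma adjusted p = 0.000662, n = 6 against 6). Atp5l (0.27), Ndufa11 (0.27) and Ndufb9 (0.20), accessory subunits of complexes V and I, also passed, but each lost its call with at least 5 of the 12 libraries left out in turn, with adjusted p up to 0.0959, 0.0773 and 0.0880.

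The genes that fell with age included catalytic and accessory subunits. Cox6b2 had a median of 107 normalised counts (74.6 to 150) at E11.5 and 36.6 (29.8 to 92.6) at E14.5, a log2 difference of -1.13 ± 0.198 (limma adjusted p = 0.000214). Ndufa12, an accessory subunit of complex I, had 1763 (1562 to 2099) and 1137 (1032 to 1535), which did not overlap (-0.53 ± 0.0962, adjusted p = 0.000279). Uqcrb, the ubiquinone-binding subunit of complex III, had 641 (461 to 718) and 433 (384 to 548), which overlapped (-0.44 ± 0.109, adjusted p = 0.00330). In complex V the alpha and beta subunits of the catalytic head, Atp5a1 (-0.26 ± 0.0707) and Atp5b (-0.35 ± 0.0982), fell, as did Atp5j (-0.42 ± 0.130) and Atp5g2 (-0.34 ± 0.0957). Ndufs1, the largest subunit of the electron-input arm of complex I, fell by 0.32, and it was the 1 of the 7 nuclear-encoded catalytic subunits of complex I to do so.

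The pathways around the chain gave a background for these changes. Of 17 glycolysis and hypoxia-target genes, 14 fell and 2 rose with age, with a median of -0.88. Pkm, the pyruvate kinase of muscle and embryonic tissues, fell by 1.91 and lactate dehydrogenase Ldha by 1.25, while Aldoc, the brain aldolase, rose by 4.76. Of 13 citric acid cycle genes 6 fell and 1 rose (median -0.20), and of 8 genes of complex II and its assembly 3 fell and none rose (median -0.35), led by the flavoprotein Sdha (-0.56 ± 0.0880). Without E11.5 control 1 or E11.5 mutant 1, Sdha was the 1 of these 3 still called. Cycs, the soluble electron carrier cytochrome c, fell by 0.39, and 2 of 12 mitochondrially encoded subunits fell and 1 rose. Among 12 regulators of respiratory gene transcription 3 rose and 5 fell. The coactivator gene Ppargc1a rose from a median of 59.1 to 110 normalised counts (0.95 ± 0.118), while Nrf1 (-0.42 ± 0.0940) and Gabpa (-0.31 ± 0.115), the genes of factors that bind the motifs above, fell. Gabpa lost its call with any of 7 libraries left out (adjusted p up to 0.0814). Markers of postmitotic neurons moved with age, from a sum of 7511 to 11557 at E11.5 to 26607 to 37941 at E14.5, and so did those of intermediate progenitors, from 757 to 1223 to 1945 to 2329, and of choroid plexus, from 128 to 249 to 716 to 7531. Markers of apical progenitors went the other way, from 13708 to 17462 down to 8393 to 10224. None of these sums overlapped between the ages, and their part in the result was not tested.

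The third comparison set the 12 h cultures against the E14.5 cortices. Of the 72 genes, 32 were lower in culture (44.4%, against 16.1% of all genes) and none was higher (against 14.1%), in a limma fit averaged over genotypes. The log2 difference was negative for 65 of the 72, with a median of -0.33 beside -0.06 over all genes tested. In complex I 13 of 36 were lower (median -0.33), in complex III 3 of 8 (-0.19), in complex IV 7 of 12 (-0.38) and in complex V 9 of 16 (-0.32). With 1 library left out, at least 8, 3, 5 and 5 of these calls stood, the 8 without control cortex 4 and the 5 of complex V without mutant cortex 1. Cultures and cortices did not overlap for 14 of the 72 genes, all lower in culture (19.4%, against 7.76% of all genes).

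The same direction appeared in each genotype. In the controls alone 16 of the 72 genes were lower in culture (22.2%, against 8.90% of all genes), and in the mutants alone 15 (20.8%, against 6.72%). Of the 32 calls, 21 stood in all 10 other settings and with any 1 of the 12 libraries left out.

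Cox7a2l, which led the genes that rose with age, had the smallest p of the 72 here. After E14.5 values of 1787, 2084 and 2322 in controls and 1918, 1903 and 1787 in mutants, its normalised counts at 12 h were 802, 1081 and 1058 in controls and 1026, 965 and 1060 in mutants. No culture reached the lowest cortex. The log2 difference was -0.98 ± 0.0995 (limma adjusted p = 4.58e-06). It was -1.08 in controls and -0.88 in mutants, and the test of that difference did not pass (0.20 ± 0.199, adjusted p = 0.816). The gene lies at chr17:83501918-83517330 on the minus strand (GRCm38).

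Uqcrh, the hinge protein at the cytochrome c1 side of complex III, had the ETS letters just before its start in the sequence above. Its normalised counts in E14.5 cortices were 3282, 3404 and 3043 in controls and 3858, 3533 and 2631 in mutants. In 12 h cultures they were 1965, 2172 and 1710 in controls and 1881, 2104 and 1826 in mutants. All cultures lay below all cortices, and the log2 difference was -0.75 ± 0.105 (limma adjusted p = 8.41e-05). In complex III, Uqcr11 (-0.58 ± 0.108) and Uqcr10 (-0.50 ± 0.115) were also lower, while the ubiquinone-binding subunit Uqcrb (0.04 ± 0.123), the core protein Uqcrc2 (-0.06 ± 0.121) and the Rieske subunit Uqcrfs1 (-0.05 ± 0.295) did not pass.

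Of the 36 genes of complex I, 7 code for the catalytic core and the others, by symbol, for accessory subunits. Among the 13 lower genes, 12 code for accessory subunits, which thus were most of both counts. Ndufa3 had 760, 642 and 627 normalised counts in control and 722, 787 and 668 in mutant cortices, against 508, 254 and 429 in control and 392, 365 and 355 in mutant cultures. The cultures all lay below the cortices, with control 4 lowest (-0.89 ± 0.144, limma adjusted p = 0.000316). Ndufv3 (-0.93 ± 0.172), Ndufa7 (-0.59 ± 0.126), Ndufc1 (-0.52 ± 0.114) and Ndufb11 (-0.49 ± 0.105) were lower too. Ndufa1, a small subunit of the membrane arm, had the most negative difference (-1.04 ± 0.313, adjusted p = 0.0205) but was uneven. Its normalised counts were 332, 250 and 112 in control and 111, 140 and 218 in mutant cortices, against 47.2, 42.3 and 143 in control and 108, 95.8 and 133 in mutant cultures, so that the groups overlapped. Its call was lost with any of 5 of the 12 libraries left out (adjusted p up to 0.0621). Ndufa8, printed above, had 325 (204 to 464) in cortex and 208 (108 to 328) in culture, which overlapped (-0.71 ± 0.235, adjusted p = 0.0317), and its call was lost in edgeR and with any of 8 libraries left out (adjusted p up to 0.0813).

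Of the 7 nuclear-encoded catalytic subunits of complex I, 1 was lower in culture, Ndufs7 (-0.33 ± 0.117, adjusted p = 0.0461). It did not pass with any of 8 libraries left out (adjusted p up to 0.116). Ndufs1 and Ndufs3 had differences of 0.00 ± 0.115 and -0.12 ± 0.118. Ndufa12, which fell with age, had 1137 (1032 to 1535) in E14.5 cortex and 1235 (802 to 1538) at 12 h, so that no change showed within its spread (-0.04 ± 0.144, 95% interval -0.35 to 0.26).

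Complex IV had 7 of its 12 genes lower in culture. Cox4i1, the regulatory subunit of the ubiquitous form, had a median of 2571 normalised counts (2236 to 3560) in E14.5 cortex and 1861 (1724 to 2040) at 12 h, with no overlap (-0.55 ± 0.108, adjusted p = 0.00143). Cox7a2 (-0.42 ± 0.112), Cox8a (-0.40 ± 0.0957), Cox6c (-0.38 ± 0.0883), Cox6b1 (-0.38 ± 0.116) and Cox6a1 (-0.27 ± 0.0980) were lower too. Cox6b1 lost its call with any of 3 libraries left out and Cox6a1 with any of 10, with adjusted p up to 0.0629 and 0.133. Cox5a had 0.14 ± 0.138 and Cox6b2 -0.87 ± 0.386 (adjusted p = 0.0998). Ndufa4, now counted as a subunit of complex IV although its symbol places it in complex I, had 160 (75.7 to 232) in cortex and 81.2 (50.3 to 335) in culture, too wide a spread to pass (-0.46 ± 0.384).

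Complex V had 9 of its 16 genes lower, among them genes of its membrane part and its stalks. Atp5g2, of subunit c, had 308, 319 and 294 normalised counts in control and 303, 306 and 334 in mutant cortices, and 153, 189 and 177 in control and 210, 196 and 271 in mutant cultures. No culture reached the lowest cortex (-0.66 ± 0.121, limma adjusted p = 0.000862). Atp5mpl (-0.61 ± 0.105), Atp5e (-0.59 ± 0.102) and Atp5j2 (-0.49 ± 0.0922) likewise did not overlap, and Atp5k, with the NRF1 letters on both strands of its printed promoter, went from 3643 (2769 to 4404) to 2624 (1682 to 3195) and overlapped (-0.46 ± 0.142, adjusted p = 0.0227). Atp5k lost its call with any of 3 libraries left out (adjusted p up to 0.0603). The other genes of subunit c gave -0.04 ± 0.103 (Atp5g1) and -0.18 ± 0.229 (Atp5g3).

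The alpha and beta subunits of the catalytic head of complex V did not share that direction. Atp5a1, of the alpha subunit, had 2461, 2619 and 2312 normalised counts in control and 2520, 2689 and 2416 in mutant cortices, and 2506, 2750 and 2356 in control and 2545, 3168 and 3825 in mutant cultures. Cortices and cultures overlapped, with control culture 4 and mutant cultures 2 and 6 above all cortices. The difference did not pass (0.17 ± 0.101, adjusted p = 0.207, 95% interval -0.04 to 0.39). Atp5b, of the beta subunit, had 0.09 ± 0.129 (95% interval -0.18 to 0.37). The central stalk subunits that turn within them gave -0.40 ± 0.101 for Atp5c1, -0.38 ± 0.110 for Atp5d and -0.59 ± 0.102 for Atp5e, all lower by the adjusted test, though Atp5d lost its call with either of 2 libraries left out (adjusted p up to 0.0511).

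**Figure D4:**
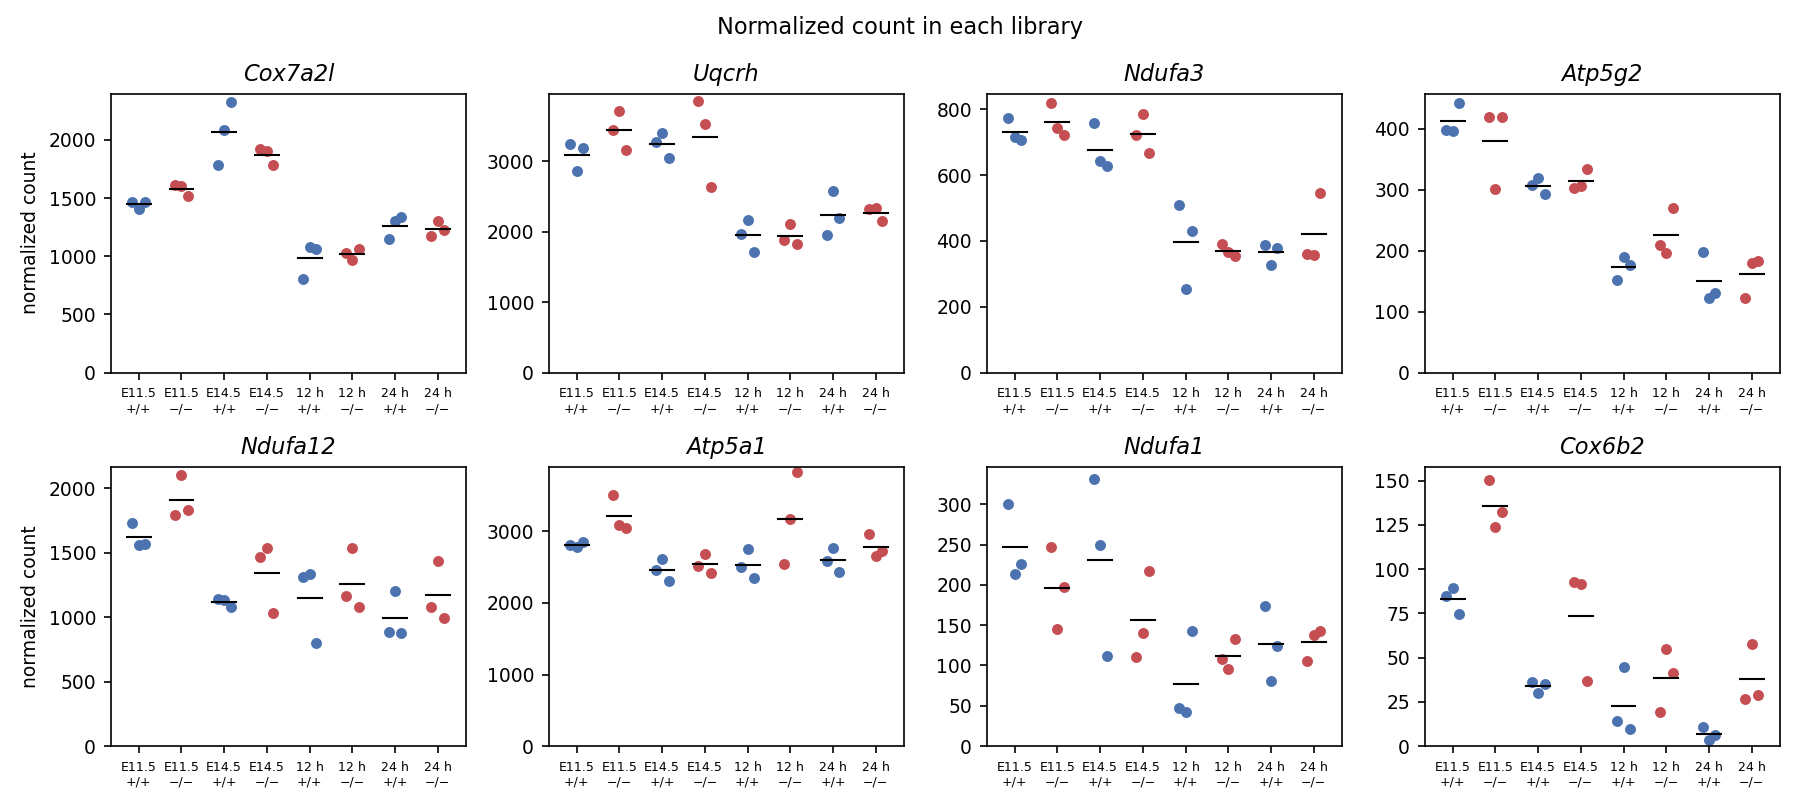
Normalised count (vertical axis, each panel on its own scale) of Cox7a2l, Uqcrh, Ndufa3, Atp5g2, Ndufa12, Atp5a1, Ndufa1 and Cox6b2 in the 24 libraries by condition (horizontal axis); blue points are Cep135 (+/+), red points Cep135 (-/-) and black lines the means of 3. Cox7a2l, Uqcrh, Ndufa3 and Atp5g2 lie lower in every 12 h culture than in any E14.5 cortex, while Atp5a1 and Ndufa12 overlap.

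Around the chain, not all mitochondrial genes were lower in culture. Of 13 citric acid cycle genes none fell and 1 rose, Dlst (0.46 ± 0.118), with a median of -0.03. Cycs, the cytochrome c gene, rose from a median of 346 to 455 normalised counts (0.41 ± 0.113, adjusted p = 0.0132). Of the 12 mitochondrially encoded subunits that could be tested 4 rose and 4 fell. mt-Co1 (0.71 ± 0.101), mt-Nd2 (0.63 ± 0.113), mt-Nd5 (0.58 ± 0.0902) and mt-Nd6 (0.90 ± 0.184) rose, and mt-Co3 (-1.01 ± 0.190), mt-Nd3 (-0.94 ± 0.223), mt-Atp6 (-0.86 ± 0.149) and mt-Co2 (-0.61 ± 0.197, not with any of 5 libraries left out) fell. Complex II and its assembly had 4 of 8 genes lower and none higher, of which Sdhaf4 alone was still called without control cortex 4, mutant cortex 2 or control culture 3. Assembly factors had 1 of 14 higher and 1 lower for complex I, 2 of 6 lower for complex III, 4 of 19 lower for complex IV and 1 of 3 lower for complex V. Coa3, Coa4, Cox19 and Pet100, the 4 of complex IV, all lost their call without control cortex 4 and without mutant cortex 1, with adjusted p up to 0.0961, 0.0806, 0.0532 and 0.0594 over the libraries left out. Uqcc3, of complex III, lost its call with any of 9 libraries left out, and Atpaf1, the 1 of complex V, with any of 10 (adjusted p up to 0.0944 and 0.112). For complex I, 1 of the 2 calls was lost with any of 5 libraries left out.

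Among regulators, Nrf1 (0.43 ± 0.125), Yy1 (0.31 ± 0.0998) and Pprc1 (0.70 ± 0.171), a coactivator of NRF1, rose in culture, while Ppargc1a (-0.55 ± 0.163) and Tfb1m (-2.04 ± 0.674) fell, of 12 listed. Tfb1m was not called in edgeR or with a pseudocount of 0.1. With 1 library left out, Nrf1 lost its call without mutant cortex 2 (adjusted p = 0.0579), and Yy1 and Tfb1m lost theirs for 5 and 6 of the 12 libraries (adjusted p up to 0.0709 and 0.0766). Of 17 glycolysis and hypoxia-target genes 10 fell and 3 rose, with a median of -0.31. The glucose transporter Slc2a1 (-1.60 ± 0.242), the pyruvate dehydrogenase kinase Pdk1 (-1.44 ± 0.267) and Tpi1 (-0.84 ± 0.148) fell, and Hk2 (1.44 ± 0.143), Pfkp (1.25 ± 0.153) and Vegfa (0.89 ± 0.154) rose. Adjusted p-values of the genes in these last sentences were under 0.05 by the same limma fit.

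The cell makeup moved with culture as well. Endothelial markers (5 genes) summed to 793 to 933 normalised counts in E14.5 cortices and 24.3 to 102 in 12 h cultures, those of meninges to 1434 to 2442 and 118 to 256, and those of microglia to 233 to 553 and 5.26 to 22.8. Erythroid genes summed to 38256 to 45371 in the cortices and 69448 to 153171 in the cultures. Markers of intermediate progenitors summed to 1945 to 2329 and 1004 to 1350, with Eomes (-1.05) and Neurog2 (-0.70) lower. The summed markers of apical progenitors overlapped (8393 to 10224 and 7858 to 10837) and the 6 genes went both ways. Hes5, a Notch target (-4.23), Fabp7 (-1.75), Pax6 (-0.92) and Nes (-0.88) fell, Vim rose (0.88), and Sox2 did not pass (0.21). Those of postmitotic neurons overlapped (26607 to 37941 and 25846 to 40469). The part of these in the lower respiratory transcripts was not tested.

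Between 12 h and 24 h in culture none of the 72 genes passed (against 0.255% of all genes), with 6 at an unadjusted p under 0.05 by limma (against 9.02%) and a median of 0.05 beside 0.02 over all genes tested. Cox7a2l had a median of 1042 (802 to 1081) at 12 h and 1265 (1147 to 1339) at 24 h, with no overlap (0.33 ± 0.0953, adjusted p = 0.234). In the fit of all 24 libraries Cox7a2l and Atp5mpl passed, with adjusted p = 0.0471 and 0.0417. Uqcrh went from 1923 (1710 to 2172) to 2257 (1949 to 2578), which overlapped. The 24 h medians of Cox7a2l, Uqcrh and Ndufa3 (370) stayed under those of the E14.5 cortices.

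Whether genotype altered the changes with age, culture or time was tested as an interaction. None of the 72 genes passed in any of the 3 tests (against 0% of all genes in each of the 3), with 5, 2 and 0 at an unadjusted p under 0.05 by limma (against 7.84%, 5.32% and 2.38%). DESeq2 called 17, 5 and 0 of all genes and edgeR 0, 1 and 0 in these tests, none of them among the 72. The median half-width of the 95% intervals was 0.41, 0.52 and 0.55 on the log2 scale. These intervals are not adjusted for the number of genes, so changes larger than that could also fail to pass. With age, for example, Cox5a had -0.65 (95% interval -1.14 to -0.15) and was not called.

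Isoforms outside the 72 genes were rare here. Cox4i2, the hypoxia-linked partner of Cox4i1, was at 2.35 to 19.2 normalised counts in all 12 cortices and at 0 in 10 of the 12 cultures. Ndufa4l2, the partner of Ndufa4, was at 1.01 to 16.5 in the cortices and at 0 in 9 of the 12 cultures. The muscle isoforms Cox6a2 and Cox7a1 averaged 3.25 and 8.21, and Cox8b had no read in any library.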

How the data were processed

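RNA from 24 mouse libraries was sequenced as 3′ tags. The authors trimmed the reads, checked them with FastQC 0.11.7, aligned them to GRCm38 with TopHat2 2.0.10 (with SAMtools 0.1.19 and Bowtie 1.0.0), counted them per gene and strand with HTSeq 0.6.1 on GENCODE models, and scaled the counts with DESeq2, per the labels and the study's methods. The deposited signal is the count divided by 1 size factor per library (0.593 to 1.55). Whole reads were recovered from it for 100% of the 484666 values above 0, within 0.01. All columns of the table were used.

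Where a gene averaged 10 or more normalised counts over a comparison's libraries, it was tested with limma 3.58.1 in R 4.3.3, with a trend, on log2 of the normalised count plus 1, with Benjamini-Hochberg adjustment over all genes tested and a two-sided threshold of 0.05. Each genotype comparison was fitted on its own 6 libraries, and age, culture and time on 12, averaged over genotypes, with genotype as an interaction. A fold is on the log2(value + 1) scale and understates changes of low genes. Replicates were libraries with separate specimen numbers in the labels, and where the labels do not say more, p-values measure the spread between these libraries. The counts of called genes with edgeR 4.0.16 and DESeq2 1.42.0 on the recovered reads were alternatives, beside other pseudocounts (0.1 and 5), filters (none and 50), scalings, each library left out, and the specimen number as a block. Scripts were tested on simulated data.

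The 72 genes and all lists were chosen with earlier results of these data known. Named were, by smallest p in each comparison, at most 3 members per direction, the 2 highest and the lowest gene of each complex, isoform partners, and fixed genes outside the 72 (complex II, Cycs, Cep135 and the like); other genes were named for their role after their values were seen. Gene coordinates are from GENCODE on GRCm38, which matched 71 of the 72. For 12 genes no promoter sequence was used here. Some of the listed genes are not reported here by name.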

Additional observations from a re-analysis of the deposited data

Results flagged for a closer look

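Atp5h, a subunit of the peripheral stalk of complex V, was singled out because the genotype groups separated in opposite directions at the 2 ages. Its normalised counts at E11.5 were 2460, 2688 and 2547 in controls and 2330, 2223 and 2297 in mutants, all mutants lower, and at E14.5 they were 2007, 2032 and 2095 in controls and 2171, 2162 and 2165 in mutants, all mutants higher. The log2 differences were -0.167 ± 0.0939 and 0.0835 ± 0.112. The test of the difference between them did not pass in limma (0.25 ± 0.127, adjusted p = 0.626), and it was 1 of 72 genes looked at.

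Ndufb1-ps, a complex I subunit locus whose symbol marks it as a pseudogene and which was therefore not among the 72 genes, carried a mean of 163 normalised counts over the 24 libraries and was above 0 in each. Its group means were 234 in control and 178 in mutant cortices at E11.5, 256 and 156 at E14.5, 103 and 142 in 12 h cultures, and 122 and 111 in 24 h cultures, with SDs of 33.0 to 111.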

How the results depend on the processing

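No difference with an adjusted p under 0.05 reversed among the genes and counts recomputed under each alternative. The number of the 72 genes called stayed within 1.5 times its value except at 3 places. In 24 h cultures, 1 gene (Cox6b2) passed between genotypes with all 24 libraries in one fit and 1 (Cox6b2) with DESeq2, and between 12 h and 24 h 2 genes passed with all 24 libraries in one fit. For culture the calls ran from 27 to 41 over 10 alternatives and from 23 to 39 with 1 library left out, all lower in culture, and for age from 13 to 18 over 9 and from 14 to 19. Quantile scaling gave 41 and rescaling to equal totals 38 for culture. With the specimen number as a replicate block culture gave 32 calls, of which 29 were shared, time 0 and the interactions 0. Cox6a1, Ndufs4 and Ndufs7 were then not called (limma adjusted p = 0.0507, 0.0549 and 0.0533), and Ndufa6, Ndufb3 and Ndufb7 were (0.0334, 0.0210 and 0.0301). Deviations from the group means of libraries with the same number correlated at -0.11 to 0.19 (cortex and 12 h) and -0.04 to 0.18 (12 h and 24 h). With different numbers within a genotype they correlated at -0.21 to 0.15 and -0.31 to 0.23. Each mutant cortex correlated best with the 12 h culture of its own number, and each mutant 12 h culture with its 24 h culture. Among the controls this held for some libraries and not for others, so the number does not show a pairing throughout. No specimen label was shared between ages. Without mutant 6 at E14.5, with its conflicting age labels, 19 genes were called with age and 30 with culture. Of all genes, limma called 2, 10, 0 and 36 between genotypes at E11.5, E14.5, 12 h and 24 h. DESeq2, the method of the study, called more (34, 64, 9 and 182), and edgeR called 1, 9, 0 and 40. For age and culture edgeR and DESeq2 also called other numbers than limma. Among the 72 genes their counts lay at or within the values given here. Depth limits Cox6b2, at a few reads in the 24 h controls, and the causes of these changes were not tested.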
